A study of Mus musculus with 10 samples.

Results

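Zscan4 and other genes of the 2-cell stage embryo were followed in 6 groups of mouse embryonic stem (ES) cells on 10 one-colour Agilent arrays. The members were all probes, control spots aside, named Zscan4c, Zscan4d, Zscan4f, Tmem92, Zfp352, Tcstv1 or Tcstv3 in the scanner files. That rule found 7 of the 55681 probes on the array, and they stand for 5 of the 36161 names its probes carry (a probe without a gene carries its own ID): 3 probes for Zscan4c and 1 each for Zscan4f, Tcstv1, Tcstv3 and Zfp352. No probe carried the name Zscan4d or Tmem92. The Zscan4d transcript is listed among the targets of the Zscan4f probe and of 1 Zscan4c probe, and a probe named Tmem92-ps lists the transcript that RefSeq calls Tmem92. That probe, 2 probes of Zscan4a and 1 of Zscan4e are close relatives outside the rule, and they are described beside the members. Testing was limited to probes that lay well above local background throughout 1 or more of the groups, which 33100 probes did, all 7 members among them. Tcstv1, Tcstv3 and the Zscan4c probe A_52_P363843 passed only through groups in which they were high, so a count over the members that passed supports nothing by itself.

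J1 is a widely used wild-type line and gave 2 arrays. PRDM14, with 2 arrays, is a J1 derivative labelled as stably expressing Prdm14, a regulator of pluripotency and of germ cells. PRDM14_DNMT3B, with 2 arrays, is labelled as that line with Dnmt3b1 stably expressed as well. Dnmt3b_KO (Dnmt3b-/-) gave 2 arrays, while Dnmt1_KO (Dnmt1-/-) and TKO (Dnmt1-/-Dnmt3a-/-Dnmt3b-/-) gave 1 array each. The series asked how the loss of DNA methylation that follows PRDM14 overexpression acts on gene expression. All groups grew without feeder cells in serum medium with leukaemia inhibitory factor. Each group is 1 line, the promoters of the transgenes are not given in the sources used here, and nothing says that replicates were separate cultures. The spread behind each p-value is that between arrays and could be technical.

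A level below is log2 of a probe signal with the 75th percentile of that array taken off, so it ranks arrays for 1 probe and does not rank probes. A difference is in log2 units, with its standard error (SE) from 1 limma fit over all 33100 probes and 10 arrays. Calls were made where the adjusted p (Benjamini-Hochberg) fell under 0.05. All 8 ES cell markers were well above background on every array. In the knockout lines Dnmt1, Dnmt3a and Dnmt3b followed their labels, with Dnmt1 at -2.68 in Dnmt1_KO and -3.15 in TKO. Dnmt3b did not follow the label of PRDM14_DNMT3B, where each of its probes was lower than in PRDM14. On probe A_55_P1975903 it was at 3.05 and 2.99 in PRDM14, and at 2.63 and 2.65 in PRDM14_DNMT3B. Whether the Dnmt3b probes detect the transgene is not given. The single Prdm14 probe did not follow its label either. It was at -0.08 and 0.09 in J1, -4.32 and -4.02 in PRDM14, and not well above background in PRDM14_DNMT3B. Whether it detects the transgene is not given, so every direction drawn for PRDM14 and PRDM14_DNMT3B is that of arrays labelled so. The PRDM14 arrays were each the only one of the series on a slide, and in comparisons with PRDM14 the slide cannot be told apart from the group.

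Zscan4 genes encode nuclear proteins with a SCAN domain and zinc fingers, and they are transcribed in the mouse embryo at the 2-cell stage, when its own genome is first read on a large scale. In cultures of ES cells they are known for bursts in a small share of cells, where they accompany telomere lengthening and a passing 2-cell-like state. Tcstv1 and Tcstv3 belong to a small family named for variable expression at the same stage, Tmem92 encodes a transmembrane protein used as a marker of 2-cell-like cells, and Zfp352 encodes a zinc finger protein of that stage. In bulk RNA, a larger share of cells that express a gene and more of its RNA in each cell cannot be told apart.

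The probes themselves show how far Zscan4 copies can be separated, so the sequences that decide this are shown first. The Zscan4c probe A_52_P363843 (mm9 chr7:11594425-11594484, plus strand) begins at base 804 of its transcript and is listed for 3 copies, Zscan4a, Zscan4c and Zscan4d. It is printed whole, in lower case:
Zscan4c A_52_P363843: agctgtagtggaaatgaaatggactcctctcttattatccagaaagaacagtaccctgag
The Zscan4c probe A_55_P2019533 (mm9 chr7:11595751-11595810, plus strand) and the Zscan4a probe A_55_P2007016 (mm9 chr7:11379679-11379738, minus strand) overlap by 58 bases and differ at 2 of them. The stretch of 30 bases that holds both differences is printed below, with the differing bases in capitals:
Zscan4c A_55_P2019533: aaatgcattgcctcttcagacatctcatGC
Zscan4a A_55_P2007016: aaatgcattgcctcttcagacatctcatAT
The Zscan4f probe A_55_P2007986 (mm9 chr7:11987608-11987667, plus strand) lists 4 copies, Zscan4a, Zscan4c, Zscan4d and Zscan4f. The Zscan4c probe A_55_P2007017 (mm9 chr7:11595690-11595748, plus strand) lists Zscan4c alone. The first 30 bases of these 2 probes have no capitals, since nothing in them is singled out:
Zscan4f A_55_P2007986: atgttgcaagtaaattgtactgtcccaata
Zscan4c A_55_P2007017: tacagtgttcttgacagaagcctggcattc
Near-identical copies may share the signal of each of these probes, and the values below are those of a probe and not of 1 copy. The probes of the other members are unlike these. That of Zfp352 lies at mm9 chr4:89892270-89892329, that of Tcstv3 at mm9 chrUn_random:3205-3264, and the Tcstv1 probe has no position in the files. No mm9 annotation was used here, so exons are not assigned. The first 30 bases of the 3 probes are:
Zfp352 A_55_P2060343: aatcagatctgtctcccttttagctccttt
Tcstv1 A_51_P481768: aaggtgttctaattctgaggcactttgttt
Tcstv3 A_51_P143200: cttcaaagagcttttcgccagaagtgagaa

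The region before the start site was compared as well, because the series is about DNA methylation and the Zscan4 probes moved together. RefSeq's promoter table, on GRCm38.p6, held 4 of the 7 genes: Zscan4c, Zscan4d, Zscan4f and Zfp352. The 250 bases before the start are printed for Zscan4c (chr7:11005495-11005744, plus strand), Zscan4f (chr7:11397665-11397914, plus strand) and Zfp352 (chr4:90218570-90218819, plus strand). Capitals mark each CG, the dinucleotide at which DNA methyltransferases mainly act, and the motif TATAAA:
Zscan4c: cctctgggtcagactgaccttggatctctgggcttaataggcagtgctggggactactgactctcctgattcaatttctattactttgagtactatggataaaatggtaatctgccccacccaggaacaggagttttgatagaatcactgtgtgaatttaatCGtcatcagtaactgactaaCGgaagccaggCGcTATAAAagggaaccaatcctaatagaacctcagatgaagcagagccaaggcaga
Zscan4f: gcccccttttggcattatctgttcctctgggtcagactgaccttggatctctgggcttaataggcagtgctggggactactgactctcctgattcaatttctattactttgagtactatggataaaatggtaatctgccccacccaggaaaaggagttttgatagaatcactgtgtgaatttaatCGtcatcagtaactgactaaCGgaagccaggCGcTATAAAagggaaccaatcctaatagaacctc
Zfp352: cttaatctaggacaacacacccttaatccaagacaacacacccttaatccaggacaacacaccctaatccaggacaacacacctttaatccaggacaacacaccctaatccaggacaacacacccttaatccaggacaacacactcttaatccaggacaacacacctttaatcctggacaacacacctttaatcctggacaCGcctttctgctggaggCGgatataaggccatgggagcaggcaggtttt
Aligned pairwise, the promoters of Zscan4c, Zscan4d and Zscan4f were 97.2% to 99.3% identical over 266 to 289 bases. Over the whole window of 300 bases, from 250 before to 50 after the start, Zscan4c held 4 CG, Zscan4d and Zscan4f held 3 each and Zfp352 held 2. The median over 32851 promoters was 7, and 38.0% of promoters held no more CG than Zscan4c. The motif TATAAA lay on the gene's own strand in all 3 Zscan4 promoters, starting 54 bases before the start in Zscan4c, 65 in Zscan4d and 31 in Zscan4f. It was searched on both strands, is found on either strand in 13.6% of all these promoters and on the gene's strand in 8.32%, and its letters are not in the window of Zfp352. A match describes letters and shows no binding site.

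Zscan4 signal was low in J1 and Dnmt3b_KO, intermediate in Dnmt1_KO and TKO, and high in both lines labelled PRDM14. The Zscan4f probe was at -2.29 and -2.13 in J1, -3.27 and -2.54 in Dnmt3b_KO, 1.72 in TKO, 2.74 in Dnmt1_KO, 4.16 and 4.29 in PRDM14_DNMT3B, and 4.29 and 4.54 in PRDM14. As raw intensity, that is a mean of 53.2 units in J1 and 5648 units in PRDM14. No array of the 4 groups other than J1 and Dnmt3b_KO came near those 2 groups.

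The 3 Zscan4c probes gave the same picture. Probe A_55_P2019533 was at -2.47 and -2.81 in J1, -2.71 and -3.09 in Dnmt3b_KO, 1.18 in TKO, 2.00 in Dnmt1_KO, 4.05 and 4.06 in PRDM14_DNMT3B, and 4.13 and 4.24 in PRDM14. Probe A_55_P2007017 was at -2.17 and -2.60 in J1, -2.74 and -3.16 in Dnmt3b_KO, 0.88 in TKO, 1.58 in Dnmt1_KO, 3.73 and 3.94 in PRDM14_DNMT3B, and 3.73 and 3.80 in PRDM14. J1 and Dnmt3b_KO did not overlap with any other group on either probe, and in the second the 2 lines labelled PRDM14 overlapped with each other. Probe A_52_P363843 was not well above background on the arrays of J1 (-6.03 and -5.36) and Dnmt3b_KO (-5.64 and -4.87), so those values have no order. It was at -1.80 in TKO, -1.23 in Dnmt1_KO, 0.16 and 0.49 in PRDM14_DNMT3B, and 0.80 and 0.95 in PRDM14.

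Tcstv1 and Tcstv3 were not well above background in J1 and Dnmt3b_KO. Tcstv1 was at -6.33 and -5.84 in J1, -6.04 and -6.51 in Dnmt3b_KO, -3.09 in TKO, -2.36 in Dnmt1_KO, -1.18 and -1.03 in PRDM14_DNMT3B, and -0.66 and -0.34 in PRDM14. Tcstv3 was at -6.36 and -5.73 in J1, -6.07 and -6.56 in Dnmt3b_KO, -4.02 in TKO, -1.43 in Dnmt1_KO, -0.06 and -0.31 in PRDM14_DNMT3B, and 0.74 and 0.69 in PRDM14. Both genes were thus highest on the 2 PRDM14 arrays, and Tcstv3 was not well above background in TKO either.

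Zfp352 did not share this pattern. It was at 3.87 and 3.91 in J1, 3.61 and 3.74 in Dnmt3b_KO, 3.37 in TKO, 2.39 in Dnmt1_KO, 4.05 and 4.06 in PRDM14_DNMT3B, and 3.83 and 3.81 in PRDM14. Its signal was well above background on all 10 arrays, J1 included, and Dnmt1_KO was the lowest. Tmem92-ps, outside the rule, was not well above background in J1 (-6.35 and -5.92) and Dnmt3b_KO (-5.90 and -6.47). It reached -0.86 in Dnmt1_KO, 0.45 in TKO, 0.00 and 0.07 in PRDM14_DNMT3B, and 0.86 and 1.08 in PRDM14, so that TKO lay between the 2 lines labelled PRDM14 and not below Dnmt1_KO.

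**Figure D1:**
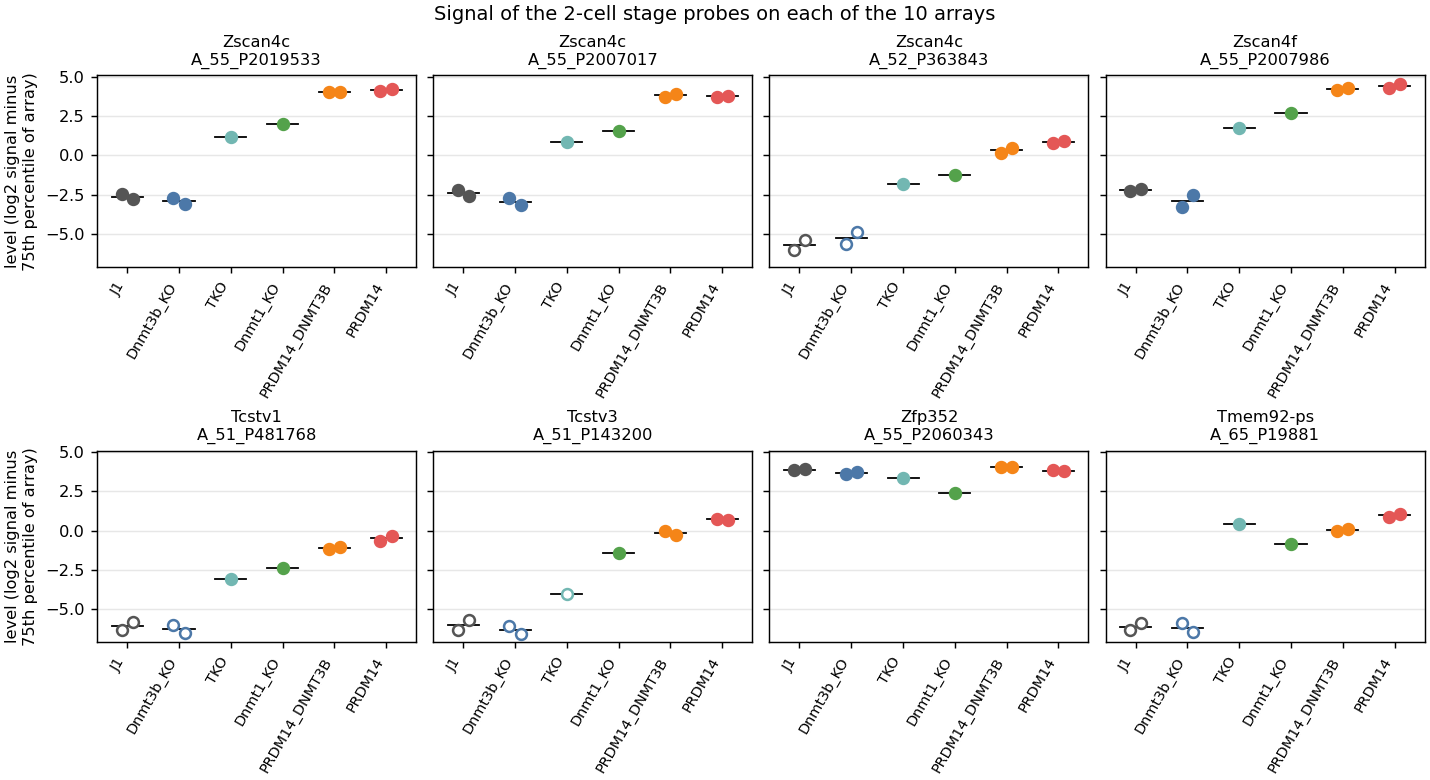
Level of each member probe, and of the Tmem92-ps probe, on the 10 arrays, on the log2 scale relative to each array's 75th percentile. Each point is 1 array, black lines are group means, and open points were not well above background. The Zscan4 and Tcstv probes are lowest in J1 and Dnmt3b_KO, higher in TKO and Dnmt1_KO, and highest in the lines labelled PRDM14. An exception is Tcstv3 in TKO, which was not well above background and has no order against J1 and Dnmt3b_KO. The difference between TKO and Dnmt1_KO, 1 array each, was not called on the Zscan4 and Tcstv1 probes. Zfp352 stays between 2.39 and 4.06.

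In PRDM14 against J1, 6 of the 7 member probes were higher and Zfp352 was not called, while 20.2% of all probes tested were higher and 18% lower. The median fitted difference over the 7 probes was 6.57, or 5.08 with the 3 probes that were dim in J1 at their lower bound, against -0.02 over all probes. Zscan4c rose by 6.83 (SE 0.17) on probe A_55_P2019533, which is 113-fold, and Zscan4f rose by 6.62 (SE 0.25), or 98.7-fold (limma adjusted p of 2.58e-05 and 4.96e-05). For a group with no array well above background, the fold is a lower bound. On each array it is set against the lowest signal that counted as above background, or against the probe's own dim value where that was higher. An adjusted p beside such a bound, here and below, is that of the fitted difference, which uses the dim values. Probes dim in J1 passed the filter only through groups where they were high, so these p add no support. By the bound, Tcstv3 was at least 30.5-fold higher, Tcstv1 at least 13.1-fold and Zscan4c probe A_52_P363843 at least 33.9-fold. Their fitted differences had limma adjusted p of 5.2e-05, 6.63e-05 and 9.97e-05. Tmem92-ps was at least 36.2-fold higher (limma adjusted p = 3.73e-05). Zfp352 differed by -0.07 (SE 0.09, limma adjusted p = 0.599).

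PRDM14_DNMT3B against J1 gave the same 6 probes as higher and 0 as lower, with 18.4% of all probes higher and 19.9% lower. Zscan4c rose by 6.70 (SE 0.17) on probe A_55_P2019533 and Zscan4f rose by 6.43 (SE 0.25; limma adjusted p of 2.96e-05 and 6.16e-05). Tcstv3 was at least 16.3-fold higher, Tcstv1 at least 8.63-fold and Tmem92-ps at least 19.0-fold, at adjusted p from limma of 8.08e-05, 9.7e-05 and 5.68e-05. These 2 comparisons share the J1 arrays, so their likeness is no independent evidence. PRDM14_DNMT3B shared slides with J1. The 3 Zscan4 probes above background in J1 differed by 5.90 to 6.52 within slide 1, and by 6.42 to 6.87 within slide 2, where J1 was scanned in another pass.

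No member was called as changed between PRDM14 and the line labelled as expressing Dnmt3b1 as well. Each Dnmt3b probe was lower in that line than in PRDM14, as given above, so the addition itself was not seen on these arrays. Whether those probes could detect it is not given. In PRDM14_DNMT3B against PRDM14, limma called 0 of the 7 probes, with 8.6% of all probes higher and 10.9% lower, and 3 of the 7 had an unadjusted p under 0.05. For Zscan4f the difference was -0.19, with a 95% interval from -0.81 to 0.42, and for Zscan4c probe A_55_P2019533 it was -0.13, from -0.55 to 0.30. These intervals are narrow beside the rise over J1. Tcstv3 lay lower by 0.90 on the log2 scale, with an interval from -1.54 to -0.26 (limma adjusted p = 0.0635), and Tcstv1 by 0.60 (limma adjusted p = 0.141). Quantile normalization and the authors' deposited value table each called both Tcstv probes lower, and normexp background with quantile normalization called Zscan4c A_52_P363843 as well. Tmem92-ps fell by 0.93 (SE 0.23, limma adjusted p = 0.0436), a call that was lost without either array of PRDM14 or of PRDM14_DNMT3B. It was also lost with the replicate number as a block (limma adjusted p = 0.0595), with slide as a random block (0.0842) and without the filter on dim probes (0.0977). The arrays of both groups lay on different slides.

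Loss of Dnmt1 went with a smaller rise than that of the lines labelled PRDM14. In Dnmt1_KO against J1 all 7 member probes were called, 6 higher and Zfp352 lower, where 11.6% of all probes were higher and 14.8% lower. Zscan4f rose by 4.94 (SE 0.30), or 30.7-fold, and Zscan4c by 4.64 (SE 0.21), or 24.9-fold, on probe A_55_P2019533 (limma adjusted p of 0.000588 and 0.000306). Tcstv3 was at least 6.86-fold higher, Tcstv1 at least 3.60-fold and Tmem92-ps at least 10.2-fold, at adjusted p from limma of 0.000791, 0.00115 and 0.00041. Zfp352 fell by 1.50 (SE 0.11, limma adjusted p = 0.000861). Dnmt1_KO is a single array and was assumed to vary like the replicated groups, and J1 replicate 1, on its slide, was scanned in another pass. Against that J1 array alone, the 3 Zscan4 probes above background in J1 differed by 3.76 to 5.02.

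TKO, which lacks Dnmt3a and Dnmt3b too, is also 1 array. Against J1, 6 member probes were higher and Zfp352 lower, where 12.5% of all probes were higher and 14.5% lower. Zscan4f rose by 3.93 (SE 0.30), or 15.2-fold, and Zscan4c by 3.82 (SE 0.21), or 14.2-fold, on probe A_55_P2019533 (limma adjusted p of 0.00103 and 0.000467). Tcstv1 was at least 2.17-fold higher (limma adjusted p = 0.00195). Tcstv3 rose by 2.02 in the fit (limma adjusted p = 0.00804), but neither group was above background, so no fold is given, and the call was lost with slide as a fixed block (adjusted p = 0.0508). Zfp352 fell by 0.52 (SE 0.11, limma adjusted p = 0.0184). That call was lost without J1 replicate 2 (adjusted p = 0.0611), with normexp background (0.0639) and without the filter on dim probes (0.0776). Tmem92-ps, in contrast, was at least 25.2-fold above J1 (limma adjusted p = 0.000292).

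Between the 2 lines without Dnmt1, 1 member probe was called higher and 1 lower, with 3.66% of all probes higher and 4.11% lower, and the Zscan4 probes did not pass the test. Zscan4f differed by -1.01 in TKO against Dnmt1_KO (95% interval -1.88 to -0.14, limma adjusted p = 0.167), and across all 7 Zscan4 probes, relatives included, the difference ran from -1.01 to -0.57. Tcstv3 was at least 6.03-fold lower in TKO, where it was at background, and Zfp352 rose by 0.98 (SE 0.12; limma adjusted p of 0.0152 and 0.0106). Tmem92-ps lay 1.30 higher (SE 0.33, limma adjusted p = 0.077). The bound for Tcstv3 is set against its own dim value in TKO (-4.02), since the lowest signal above background there was -4.24. All differences between TKO and Dnmt1_KO compare 1 array with 1 array.

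Loss of Dnmt3b alone did not go with higher 2-cell signal. In Dnmt3b_KO against J1, limma called 0 of the 7 member probes, with 9.48% of all probes higher and 10.1% lower. Unadjusted, 3 of the 7 had a p under 0.05, and all 3 lay lower. Zscan4f differed by -0.70 (95% interval -1.31 to -0.08, limma adjusted p = 0.109). It was called lower with the replicate number as a block (adjusted p = 0.0471), with slide as a random block and without Dnmt3b_KO replicate 2. Of the relatives, Zscan4a on probe A_55_P2007016 fell by 0.60 (SE 0.15, limma adjusted p = 0.0406). That call was lost in 9 alternatives, among them leaving out any array of J1, PRDM14 or PRDM14_DNMT3B, or Dnmt3b_KO replicate 2 (adjusted p of 0.0691 to 0.156).

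**Figure D2:**
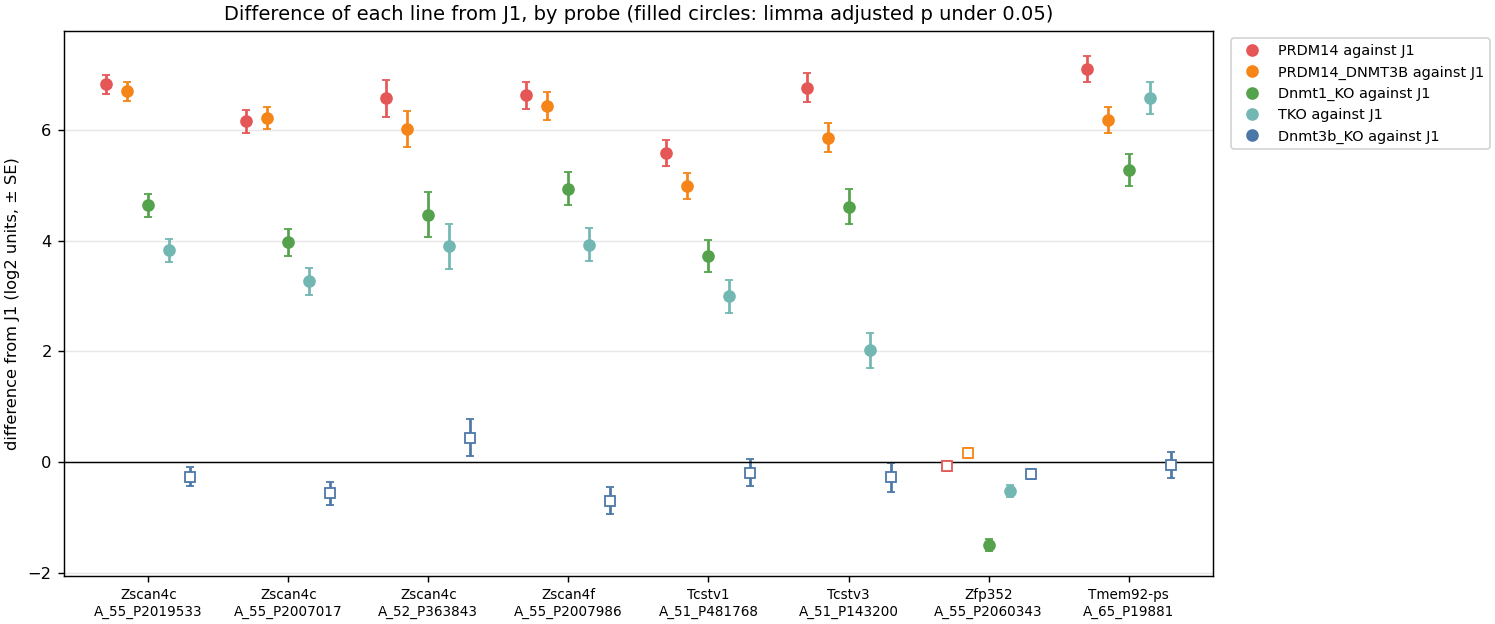
Difference of each group from J1 for each member probe and the Tmem92-ps probe, in log2 units with its SE. Filled circles passed the limma adjusted p of 0.05, and open squares did not. For the 3 Zscan4 probes above background in J1 they lie from 6.15 to 6.83 for both lines labelled PRDM14, from 3.97 to 4.94 for Dnmt1_KO, from 3.26 to 3.93 for TKO and from -0.70 to -0.26 for Dnmt3b_KO. Points of A_52_P363843, Tcstv1, Tcstv3 and Tmem92-ps are fitted against J1 arrays at background and are no measured sizes.

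Ordered by their means, the groups stood as PRDM14 and PRDM14_DNMT3B, then Dnmt1_KO, then TKO, then J1 and Dnmt3b_KO, for each of the 4 Zscan4 members. No difference was called between the first 2 groups, between the last 2, or between Dnmt1_KO and TKO on these probes, though some of the unadjusted intervals given above exclude 0. The step from the lines labelled PRDM14 down to Dnmt1_KO was called on all 4 probes, as was the step from TKO down to the lowest groups. Over all probes, 24.4% were higher in PRDM14 and 19.7% in PRDM14_DNMT3B than in Dnmt1_KO, and 8.31% were higher in TKO than in Dnmt3b_KO. For Zscan4f the first of these was 1.49 (SE 0.30) from PRDM14_DNMT3B to Dnmt1_KO (limma adjusted p = 0.0137). Tcstv1 had the order and called steps of Zscan4f, and Tcstv3 added a called step between Dnmt1_KO and TKO. Since Tcstv3 was not well above background in TKO, J1 and Dnmt3b_KO, its order among those groups is not set. For Zfp352 only the last step, from TKO down to Dnmt1_KO, was called.

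The relatives of Zscan4 moved with the members. Over the 6 Zscan4 probes above background in J1 the rise ran from 6.15 to 6.83 in PRDM14, from 6.22 to 6.70 in PRDM14_DNMT3B, from 3.97 to 4.94 in Dnmt1_KO and from 3.26 to 3.98 in TKO, and each was called. In Dnmt3b_KO their range was -0.99 to -0.26. Since copies can share signal, these are not 6 independent measurements.

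Genes with the most similar profile were sought among all 33100 probes, each gene by its probe with the highest r, by Pearson's r over the 10 arrays with the Zscan4f probe, the Zscan4 member with the highest mean signal. The 10 arrays fall into few groups with large steps between them, so r mainly reflects those steps and is given without a p. The 8 nearest genes outside the members were Zscan4a (r = 0.998, and 0.996 on its other probe), Gm4303 (0.996), Gm4340 (0.995), Zscan4e (0.995), Gm4312 (0.995), NAP102923-1 (0.993), the unnamed probe A_55_P2136612 (0.993) and AA684185 (0.992). Of these 8, 4 lie on chromosome 10, between 99803784 and 103633566 on mm9: Gm4303, Gm4312, NAP102923-1 and Gm4340. Among the members, Tcstv1 had r = 0.991, Tcstv3 0.973 and Zfp352 -0.02. An r above 0.95 was reached by 122 probes, or 0.369% of those tested.

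**Figure D3:**
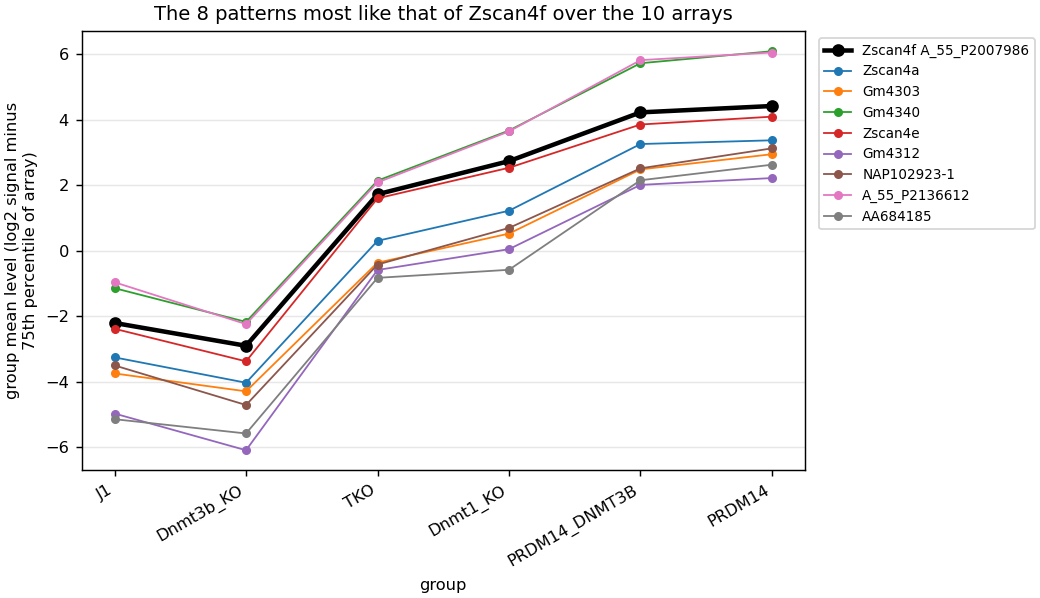
Group means of the level for Zscan4f (black) and for the 8 genes outside the members with the highest Pearson's r with it over the 10 arrays, 1 probe a gene. Lines join groups only to guide the eye. All 9 lines are low in J1 and Dnmt3b_KO and reach their highest value in PRDM14. Gm4312 and AA684185 were not well above background in J1 and Dnmt3b_KO, so their values there have no order. NAP102923-1 was not well above background in Dnmt3b_KO.

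Other genes of the 2-cell stage were taken from a list of 70 symbols, of which the array held 47 genes and 40 were tested, 1 probe a gene, Zscan4a and Zscan4e among them. In PRDM14 against J1, limma called 32 of the 40 higher, 1 lower and 7 neither, where 20.2% of all probes were higher and 18% lower. The median difference was 3.68, or 2.78 with dim genes at their lower bound. Of the 40 genes 17 were not above background in J1 and could pass the filter only through groups where they were high, so their calls support nothing about the list. Of the other 23 genes, 17 rose and 1 fell. The highest fitted differences were those of Gm8300, a relative of the translation initiation factor gene Eif1a, Gm4340 and Zscan4a, but the place of Gm8300 rests on J1 arrays at background. Gm8300 was not well above background in J1 (-4.43 and -5.97) and reached 1.99 and 2.18 in PRDM14, at least 76.3-fold higher (limma adjusted p = 0.000354). Gm4340 was at -1.33 and -0.95 in J1 and at 5.98 and 6.20 in PRDM14, a difference of 7.24 (SE 0.19, limma adjusted p = 2.58e-05). The lowest called differences were those of Zfp750, a zinc finger gene (1.10, SE 0.10), Eif1a (0.40, SE 0.09) and Ddit4l, an inhibitor of mTOR signalling, which fell by 0.38 (SE 0.10; limma adjusted p of 0.000577, 0.0197 and 0.0275). The Ddit4l and Eif1a calls were lost when either PRDM14 array was left out (adjusted p of 0.0772 to 0.108), and also without J1 replicate 1 for Ddit4l (0.101) and J1 replicate 2 for Eif1a (0.0821).

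Most listed genes tested were also called higher in PRDM14_DNMT3B, Dnmt1_KO and TKO, with the same limit for genes at background in J1. In PRDM14_DNMT3B against J1, 32 rose and 0 fell (median 3.28, or 2.28 with bounds), where 18.4% of all probes tested were higher. In Dnmt1_KO 24 rose and 2 fell (median 1.72, or 1.10 with bounds), where 11.6% of all probes were higher and 14.8% lower. In TKO 22 rose and 3 fell (median 1.28, or 0.89 with bounds), where 12.5% were higher and 14.5% lower. Gm4340 rose by 6.87 in PRDM14_DNMT3B, 4.81 in Dnmt1_KO and 3.28 in TKO (SE 0.19, 0.23 and 0.23; limma adjusted p of 3.12e-05, 0.000325 and 0.000806). Gm8300 was at least 56.9-fold, 7.84-fold and 4.31-fold higher in these groups (limma adjusted p of 0.000431, 0.0114 and 0.0222), and the calls in Dnmt1_KO and TKO were lost with slide as a fixed block (0.0568 and 0.0945). Dux, an activator of the 2-cell programme, was on the array but not tested, since no group had it well above background on all its arrays.

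In Dnmt3b_KO against J1, 13 of the 40 genes fell and 3 rose, or 32.5% lower, where 10.1% of all probes were lower, with a median difference of -0.37 against -0.11 over all probes. Gm4340 fell by 1.03 (SE 0.19, limma adjusted p = 0.0166), a call lost without J1 replicate 2 (0.0646) or Dnmt3b_KO replicate 1 (0.0785). Zfp750 rose by 0.92 and Ddit4l by 0.65, the latter not called without Dnmt3b_KO replicate 1 (0.0559). The count of falls dropped to 6 to 8 when any array of J1, PRDM14 or Dnmt3b_KO was left out. In PRDM14_DNMT3B against PRDM14, 10 fell and 2 rose, or 25.0% lower where 10.9% of all probes were lower. The 2 that rose were Ddit4l, by 1.94 (SE 0.10), and Zfp750, by 1.41 (SE 0.10; limma adjusted p of 0.000764 and 0.00125). The count of falls was 2 or 3 when any array of either group was left out.

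**Figure D4:**
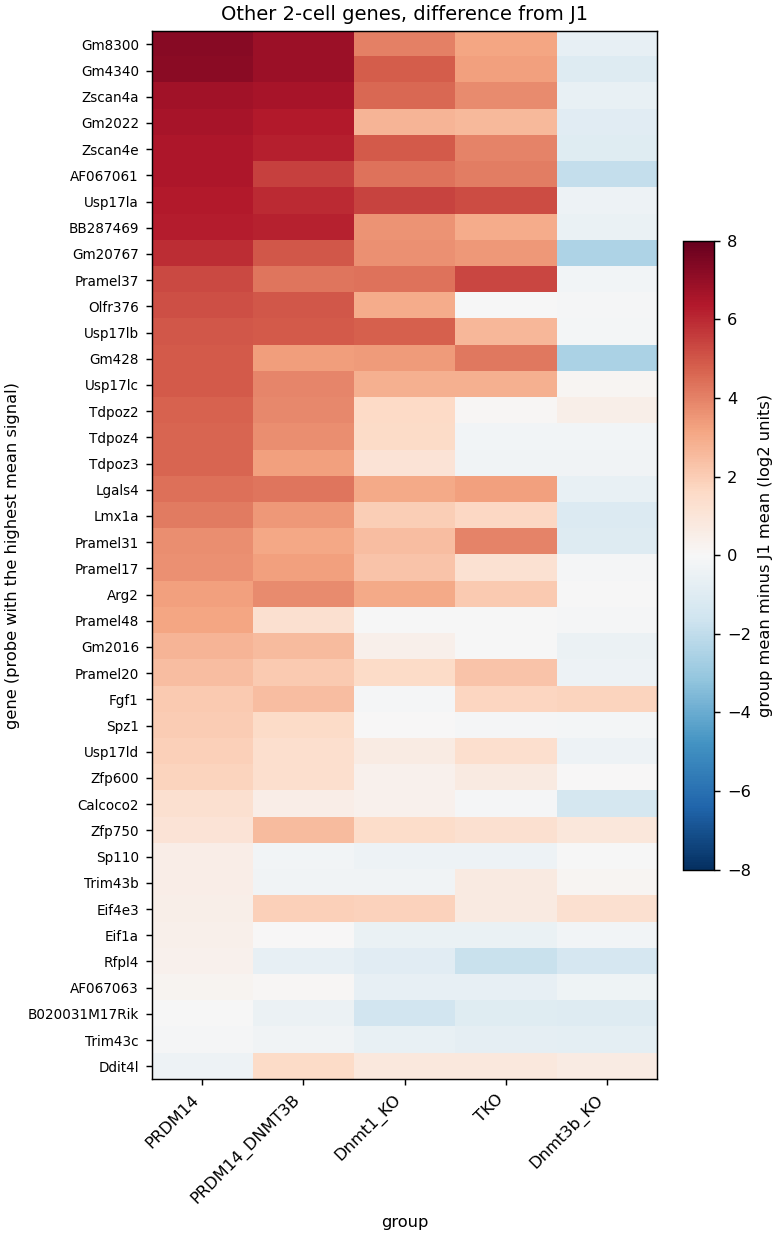
Group mean minus J1 mean, in log2 units, for the 40 tested genes of the 2-cell list, ordered by the difference in PRDM14. Red is higher and blue lower than J1. Most genes are red in both lines labelled PRDM14, fewer in Dnmt1_KO and TKO, and 13 of 40 were called lower in Dnmt3b_KO.

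Known regulators of the 2-cell programme were examined next. A list of 4 activators and 25 repressors was tested in full. In PRDM14 against J1 all 4 activators rose, where 20.2% of all probes were higher. Tbx3, a T-box factor, rose by 1.82 (SE 0.13) and Dppa2, a chromatin protein, by 1.26 (SE 0.09). Nelfa (Whsc2 on the array) rose by 0.49 (SE 0.11) and Dppa4, the partner of Dppa2, by 0.44 (SE 0.10). In that order, the limma adjusted p were 0.000264, 0.000256, 0.0188 and 0.0148. Tbx3 was at 1.32 and 1.38 in J1, 3.13 and 3.20 in PRDM14, 3.83 and 3.51 in PRDM14_DNMT3B, 3.16 and 3.23 in Dnmt3b_KO, 1.08 in Dnmt1_KO and 0.83 in TKO, so that Dnmt3b_KO stood with the lines labelled PRDM14. All 4 also rose in PRDM14_DNMT3B, where 18.4% of all probes were higher. In Dnmt1_KO 0 of 4 rose, where 11.6% of all probes were higher and 14.8% lower. Dppa2 and Dppa4 fell there by 0.49 and 0.76 (SE 0.11 and 0.12, limma adjusted p of 0.0236 and 0.00836). The Dppa2 call was lost in 8 alternatives, among them leaving out any array of J1 or PRDM14 (adjusted p of 0.0504 to 0.0674), and its difference was -0.21 with normexp. Tbx3 rose by 1.85 (SE 0.13, limma adjusted p = 0.0013) in Dnmt3b_KO. Whether any of these activators had a part in the Zscan4 levels was not tested.

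Among the 25 repressors, 5 rose and 5 fell in PRDM14 against J1, or 20% each way, near the 20.2% and 18% of all probes. Tet1, a 5-methylcytosine dioxygenase, rose by 0.86 (SE 0.08), while Rbbp7, a histone-binding subunit of several complexes, fell by 0.81 (SE 0.14), Zfp281 by 0.64 (SE 0.09) and Chaf1b, a subunit of chromatin assembly factor 1, by 0.37 (SE 0.10; limma adjusted p of 0.000741, 0.00603, 0.00294 and 0.0367). The Chaf1b call was lost without any 1 of the 8 arrays with a replicate (adjusted p of 0.0505 to 0.158). In Dnmt1_KO 10 repressors fell (40.0%) and 0 rose, where 14.8% of all probes were lower, and in TKO 5 fell (20%) and 1 rose, where 14.5% were lower. The calls on these lists rest on small differences. Over all 29 regulators in PRDM14 against J1 the count of rises dropped from 9 to 4 or 5 without 1 of the PRDM14 arrays, and the count of falls from 5 to 2 or 3 without any 1 of the 8 arrays with a replicate. In Dnmt1_KO against J1 the count of falls went from 12 to 5 under quantile normalization, and to 7 without J1 replicate 2.

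Markers of other cell types differed between the groups too, and their part in these results was not tested. Sums below are of linear signal in units of the 75th percentile of the array. The 8 ES cell markers differed between the groups as well. Their sum was 372 to 392 in J1, 407 to 415 in Dnmt3b_KO, 262 in Dnmt1_KO and 383 in TKO. It was 558 to 568 in PRDM14 and 506 to 514 in PRDM14_DNMT3B. Of 6 trophoblast markers, 4 or 5 were well above background on each array. Their sum was 135 to 142 in J1, 221 to 234 in Dnmt3b_KO, 250 in Dnmt1_KO, 48.2 in TKO, 34.4 to 35.0 in PRDM14 and 26.6 to 27.4 in PRDM14_DNMT3B. The keratins Krt8 and Krt18 carry most of this sum, and other markers went other ways: Hand1 rose by 1.96 in PRDM14 and 1.46 in Dnmt1_KO against J1, and Cdx2 fell by 1.20 and 0.89. Elf5, one of the 6, was not tested. All 3 epiblast markers were above background on every array, with sums of 39.7 to 43.3 in J1, 40.1 to 45.7 in Dnmt3b_KO, 50.1 in Dnmt1_KO, 56.2 in TKO, 8.51 to 8.97 in PRDM14 and 13.7 to 14.7 in PRDM14_DNMT3B. Of 6 fibroblast markers, 4 to 6 were above background, with sums of 18.8 to 19.4 in J1, 54.9 to 56.0 in Dnmt3b_KO and 24.4 to 31.2 in the other groups. Vim carries most of this sum: in PRDM14 against J1 it rose by 0.87, while 4 of the 6 markers fell. The mean of Col1a1 was -1.98 in J1, 1.73 in Dnmt3b_KO, 0.49 in Dnmt1_KO and 0.01 in TKO. Col1a2 was likewise higher in these knockout lines than in J1, while Col3a1 and decorin were not. Decorin, a defining marker, was not well above background in either line labelled PRDM14. Of 6 primitive endoderm markers, 2 to 6 were above background, with sums of 0.468 to 0.874 outside TKO and 2.56 in TKO.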

How the data were processed

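The deposited scanner files hold 1 fluorescence intensity per spot (Cy3, 50 ng RNA), made with Agilent Feature Extraction 10.7.3.1 and placed on mm9, per the file headers. The authors' deposited value table holds log2 values with equal quantiles on every array, and limma is named in the submitters' processing notes. From the intensities, log2 minus the 75th percentile of each array was taken, spots of a probe were averaged, and limma 3.58.1 in R 4.3.3 was fitted to 33100 probes on all 10 arrays, with 4 residual degrees of freedom. The fit was tested on simulated data. The number of arrays limits the precision. Replicates correlated at r of 0.989 to 0.995. The members and lists were chosen with earlier results of these data known. Text names every member probe, the 3 highest and 3 lowest called differences of each list in PRDM14 against J1, and the 8 genes most like Zscan4f, each by its nearest probe; differences are fitted values. Further listed genes named in the text were chosen after their values were seen. Alternatives covered background, scaling, filter, probe choice, blocks and arrays left out. For listed genes and relatives these were added after seeing the data. RefSeq matched 20869 of 22232 accessions.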

Additional observations from a re-analysis of the deposited data

How the results depend on the processing

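The rises of Zscan4 and Tcstv probes in PRDM14 and PRDM14_DNMT3B kept their direction in each alternative run, and no result of a member probe turned its sign past the threshold. Restricting the test to probes well above background on all 10 arrays leaves 4 member probes by construction, of which 3 were called in PRDM14 and in PRDM14_DNMT3B, 4 in Dnmt1_KO and 4 in TKO against J1, and 45 pairwise differences in place of 82. Dnmt3b_KO against J1 went from 0 called probes to 1 with the replicate block and to 1 with slide as a random block. PRDM14_DNMT3B against PRDM14 went from 0 to 2 with the authors' value table, 2 with quantile normalization and 3 with normexp. The cause was not tested.

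With 1 array left out, the calls ranged from 6 to 6 in PRDM14, 6 to 6 in PRDM14_DNMT3B, 7 to 7 in Dnmt1_KO, 6 to 7 in TKO, 0 to 1 in Dnmt3b_KO (1 without Dnmt3b_KO replicate 2) and 0 to 1 in PRDM14_DNMT3B against PRDM14 (1 without either J1 array), and the pairwise differences from 76 to 83. The replicate block left 6, 6 and 0 calls in PRDM14, PRDM14_DNMT3B and PRDM14_DNMT3B against PRDM14. Same-numbered arrays deviated together only weakly (r of 0.102 to 0.218), with 2 numbers, so the numbers were not taken to pair them. In J1, PRDM14_DNMT3B and Dnmt3b_KO, replicates 1 and 2 lay on slides 1 and 2, so number and slide cannot be told apart there. Over all probes the replicate block raised calls from 6473 to 9099 in Dnmt3b_KO against J1. Scaling moved the median of all probes most in Dnmt1_KO against J1, from -0.16 to -0.05 with normexp. Of the list counts, falls of 2-cell genes in PRDM14_DNMT3B against PRDM14 ran from 2 to 17.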
